A study of Mus musculus with 6 samples.

Results

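The genes described here are 10 genes of iron handling: the ferritin subunits Fth1 and Ftl1, the transferrin receptor Tfrc, the metal transporters Slc11a1 and Slc11a2, the iron exporter Slc40a1, haem oxygenase Hmox1, ceruloplasmin (Cp), hepcidin (Hamp) and the iron regulatory protein Ireb2. They were read on every array probe whose transcript accession maps to one of these symbols, which gave 18 of 56605 probes, for 10 of 23462 named genes. Each of the 10 genes had at least 1 probe. The microglia came from brains of 3-month-old mice on the C57BL/6 background and were sorted as live CD45lo Cx3cr1+ CD11b+ cells. The B41 HET group (3 arrays) had the genotype Bhlhe41 dTomato-Cre/+, and the B41 KO group (3 arrays) had Bhlhe41 dTomato-Cre/dTomato-Cre. In this allele a cassette for the fluorescent protein dTomato and Cre recombinase, ending in a polyA signal, was placed upstream of the Bhlhe41 start codon. The cassette is read from the Bhlhe41 promoter and stops translation of Bhlhe41, a transcriptional repressor. All 6 arrays therefore carried the allele at least once, no wild-type arrays were compared, and the allele was not restricted to microglia. The descriptions of the samples differ, since one has RNA pooled from 10 to 15 mice on each array and another counts 3 mice per genotype. The p-values therefore measure the spread between arrays, which may stand for pools or for single mice.

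Cells take up transferrin-bound iron through the transferrin receptor, move it out of endosomes through the divalent metal transporter Slc11a2, store it inside shells built of ferritin heavy and light chains, and export it through ferroportin, the product of Slc40a1. Iron regulatory proteins bind hairpins in several of these messenger RNAs when iron is scarce, so that ferritin translation falls and the transferrin receptor message is stabilised. Microglia are among the ferritin-containing cells of the brain, and as phagocytes they also recover iron from haem through haem oxygenase.

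The expression arrays have 1 colour and give 1 fluorescence intensity per probe and sample, here as log2 signal after quantile normalization between arrays. The share of probes called well above background, the scanner software's term for a spot brighter than its surroundings, was 70.1% to 75.5% per array. Of 56601 probes tested with limma, 975 were higher and 1892 lower in B41 KO when a call needed an adjusted p of at most 0.05 and a log2 difference of at least 0.5 in size. When arrays were aligned at the 75th percentile instead, 1297 were higher and 1534 lower, and the median difference over all probes moved from 0.02 to 0.13. The level of the Bhlhe41 transcript gave no clear check of the labels. The polyA signal of the cassette lies ahead of the Bhlhe41 start codon and could lower the downstream message in B41 KO, while the promoter stays in use. Neither Bhlhe41 probe was lower in B41 KO, with log2 differences of 0.38 and 0.33 (adjusted p = 0.330 and 0.203, limma). Where these probes lie on the transcript was not tested. All 6 arrays lay on 1 slide, with the 3 B41 HET arrays and B41 KO replicate 1 in row 1 and the other two B41 KO arrays in row 2.

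Microglia markers were present throughout, and the markers of some other cells differed between the genotypes. All 10 microglia markers were well above background on every array, and their summed signal spanned 17.26 to 17.39 (log2) in B41 HET and 17.22 to 17.30 in B41 KO (1 of 10 called lower, Fcrls). The summed signal of 10 neutrophil markers was 14.05 to 14.24 in B41 HET and 11.56 to 11.68 in B41 KO, with 8 called lower. Border macrophage markers summed to 11.26 to 11.37 and 10.70 to 10.84 (5 of 10 called lower), and endothelial markers to 10.40 to 10.52 and 9.33 to 9.39 (2 of 8 called lower, 3 not above background on any array). The 2 were Pecam1 (-1.68) and Ly6c1 (-1.79), which myeloid cells also make, and the other detected endothelial markers, Cldn5 (-0.13), Slco1a4 (0.04) and Abcb1a (0.17), were not called. Among erythroid markers, 6 of 8 had a probe, and their sum was 14.97 to 15.07 in B41 HET and 15.31 to 15.37 in B41 KO (1 called higher, the globin Hbb-bt). The sums of astrocyte markers were 10.87 to 10.93 and 11.01 to 11.16 (0 of 8 called), those of oligodendrocyte markers 11.38 to 11.52 and 11.61 to 11.74 (1 of 8 called lower) and those of choroid plexus markers 14.54 to 14.66 and 14.60 to 14.62 (0 of 6 called). All sums add signals before taking log2, so the brightest markers weigh most. The median log2 difference was -0.02 for astrocyte, -0.06 for oligodendrocyte and 0.05 for choroid plexus markers. In sorted bulk samples, fewer cells of a type and less RNA per cell cannot be told apart.

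Of the 18 probes of the iron handling genes, 1 passed the threshold, a Ftl1 probe that was lower in B41 KO, and 0 passed as higher. The call covers 5.56% of the probes of these genes, against 5.07% of all probes tested (1.72% called higher and 3.34% called lower). An unadjusted p under 0.05 was reached by 5 of the 18 probes, 1 each of Ftl1, Slc11a2, Hmox1, Cp and Ireb2, and by 23% of all probes. On 7 of 18 probes the 3 arrays of one genotype lay apart from the 3 of the other, 2 higher and 5 lower in B41 KO, while 29.7% of all probes did so (14.5% higher and 15.2% lower). The median log2 difference was -0.06 over the 18 probes and 0.02 over all probes tested. Of the 18 probes, 13 were well above background on all 6 arrays, 2 on some arrays and 3 on none. For 6 of the 13 probes the 95% interval of the difference lay wholly between -0.5 and 0.5, for another 6 that did not pass it reached past one of these limits, and the remaining probe was the Ftl1 probe that passed.

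**Figure D1:**
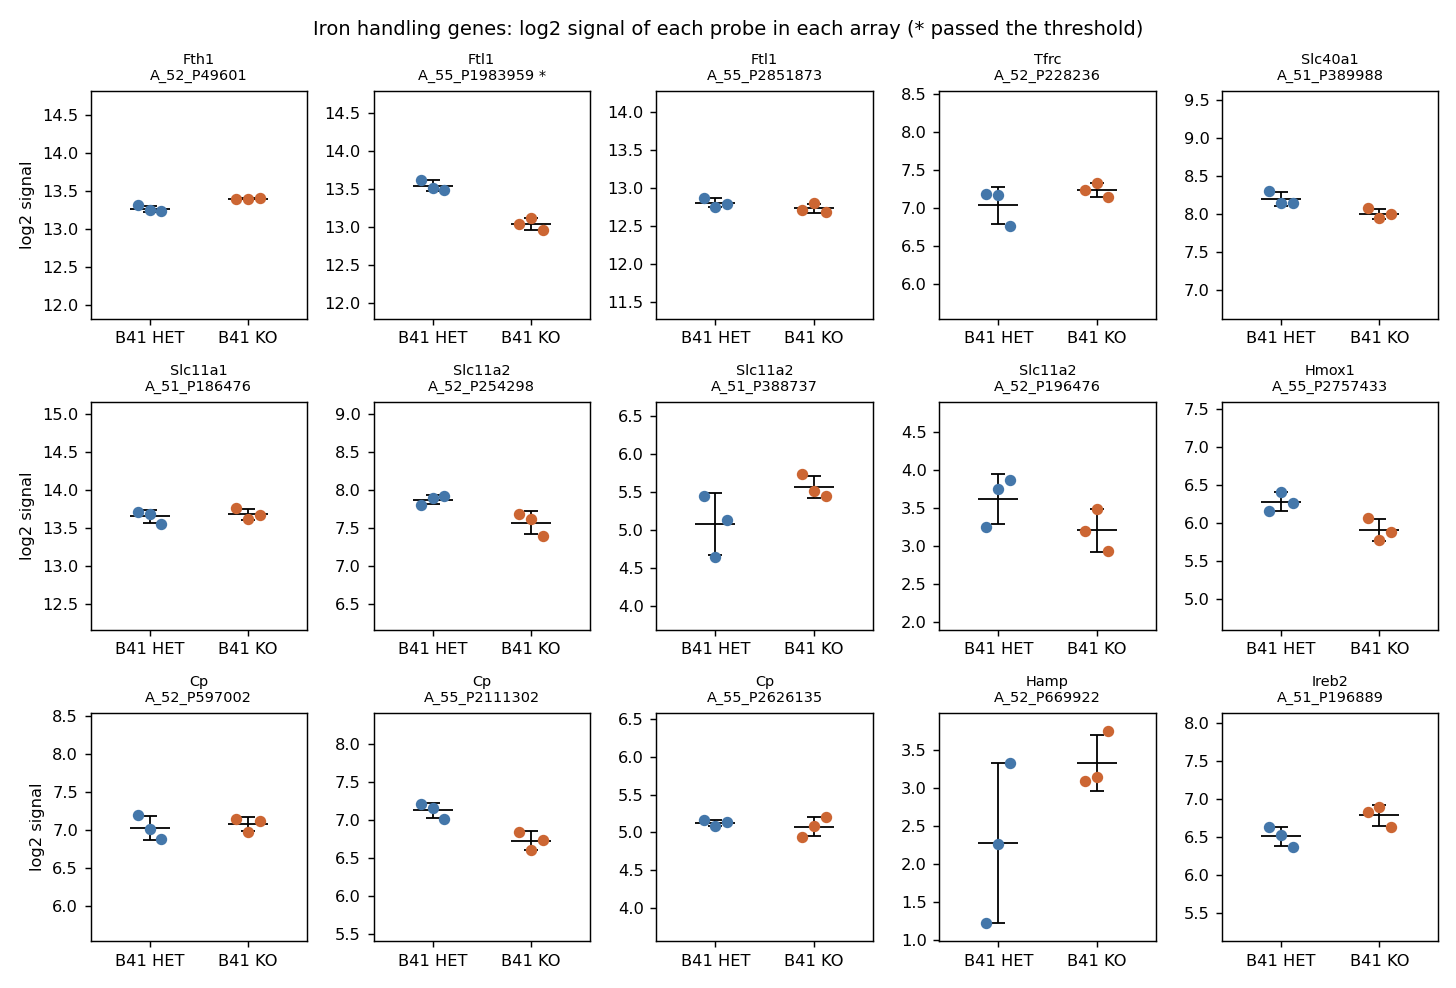
Log2 signal (vertical axis, 3 log2 units in every panel) of the 15 probes that were well above background on at least 1 array, for the 3 B41 HET arrays (blue) and the 3 B41 KO arrays (orange), with the mean and SD in black. The genotypes lie clearly apart for the first Ftl1 probe (asterisk), while Hamp is spread widely within B41 HET, from 1.22 to 3.33.

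Of the ferritin chains, 1 was called, on 1 of its 2 probes. Ftl1, the light chain that helps lay down the iron core, was measured by a pair of probes on the same RefSeq transcript, and the pair did not give the same result. The brighter probe, A_55_P1983959, read log2 signals of 13.62, 13.51 and 13.49 in B41 HET and of 13.04, 13.11 and 12.96 in B41 KO. Every B41 KO array lay below every B41 HET array, with 0.38 between the nearest ones. The log2 difference was -0.51 (SE 0.08, adjusted p = 0.0255, limma), a B41 KO level of 0.704 times that in B41 HET, just past the fold threshold. The two-sided exact permutation test gave p = 0.1, the smallest that 3 arrays against 3 allow.

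The other Ftl1 probe, A_55_P2851873, read 12.87, 12.75 and 12.79 in B41 HET and 12.71, 12.80 and 12.68 in B41 KO. The genotypes overlapped, and the log2 difference was -0.07 (95% interval -0.25 to 0.11, adjusted p = 0.636, limma). The mean over both probes had a difference of -0.29 (adjusted p = 0.0794), which did not pass. The files hold no probe sequences, and pseudogenes of Ftl1 are listed among mouse genes, so which transcripts each probe binds was not tested.

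The call of the brighter Ftl1 probe was lost when any 1 array was left out, with log2 differences from -0.54 to -0.47 and adjusted p-values from 0.0626 to 0.0930. It was also lost with the slide row as a block (-0.50, adjusted p = 0.169), a fit that rests on the single B41 KO array in row 1. The direction was the same throughout, as the plot of both probes by processing setting shows.

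**Figure D2:**
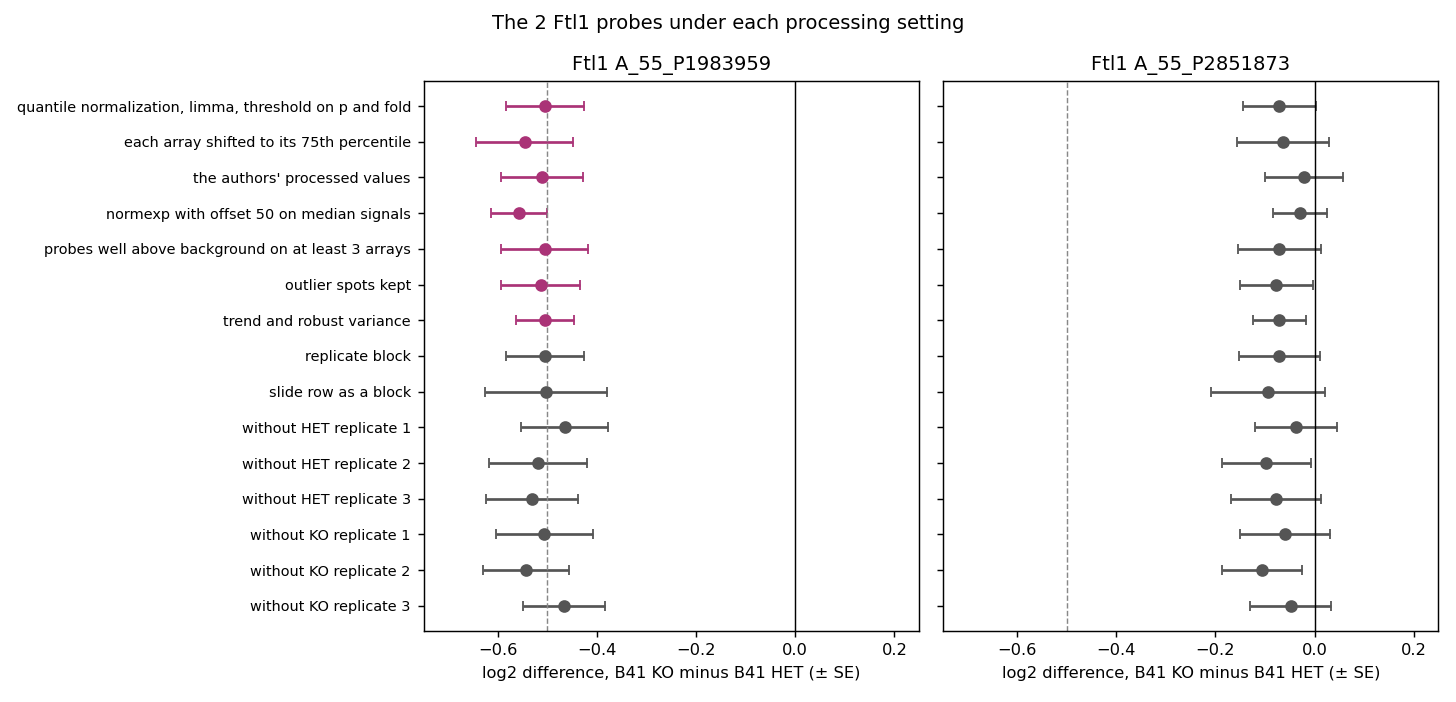
Log2 difference between B41 KO and B41 HET with its standard error (horizontal axis) for the 2 Ftl1 probes under each processing setting (vertical axis), purple where the probe passed the threshold and grey where it did not, with the fold threshold dashed. The first probe stays between -0.56 and -0.47 while its call comes and goes, and the second stays between -0.11 and -0.02.

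Fth1, the heavy chain whose ferroxidase activity oxidises iron on its way into the shell, did not pass the threshold. Its single probe read 13.32, 13.25 and 13.24 in B41 HET and 13.40, 13.40 and 13.41 in B41 KO. The B41 KO arrays all lay above the B41 HET arrays, but by a small margin, with a log2 difference of 0.14 (95% interval -0.02 to 0.29, adjusted p = 0.288, limma). The heavy chain and the brighter light chain probe thus had differences of opposite sign, of which the light chain alone passed, and the difference between them was not tested.

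Tfrc, the receptor for transferrin, was measured well by 1 of its 2 probes. That probe read 7.19, 7.17 and 6.76 in B41 HET and 7.24, 7.33 and 7.15 in B41 KO, so the genotypes overlapped and B41 HET replicate 3 was the lowest of the 6 arrays. The log2 difference was 0.20 (95% interval -0.15 to 0.55, adjusted p = 0.474, limma), and it was 0.06 without B41 HET replicate 3. The other Tfrc probe was on no array well above background and lay between 0.58 and 0.90.

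Slc11a2, the transporter that carries ferrous iron out of endosomes, had 4 probes, and none passed. The brightest read 7.81, 7.90 and 7.92 in B41 HET and 7.69, 7.63 and 7.40 in B41 KO, a log2 difference of -0.30 (95% interval -0.55 to -0.05, adjusted p = 0.147, limma). All B41 KO arrays were lower on that probe, where blocking on slide row gave a difference of -0.18. A dimmer probe on the same transcript accession read 5.45, 4.64 and 5.13 in B41 HET and 5.73, 5.51 and 5.45 in B41 KO, with overlap and a difference of the opposite sign (0.49, 95% interval -0.05 to 1.03, adjusted p = 0.261). That difference was 0.27 without B41 HET replicate 2 and 0.22 with normexp background correction. The third probe, designed on another transcript variant, read 3.25, 3.74 and 3.86 against 3.19, 3.49 and 2.93 and was well above background on all B41 HET arrays and 2 of 3 B41 KO arrays, with a difference of -0.42 (adjusted p = 0.329) that was -0.08 with normexp. The fourth was on no array well above background. These transcripts of Slc11a2 are known to differ at their ends, partly in whether they carry an iron-responsive hairpin, and the probes were not matched to those ends.

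Slc11a1, a related transporter of the phagosome and lysosome membrane of phagocytes, did not pass. Its signal was 13.71, 13.69 and 13.56 in B41 HET and 13.76, 13.61 and 13.66 in B41 KO. The arrays of the genotypes were interleaved, with a log2 difference of 0.03 (95% interval -0.17 to 0.23, adjusted p = 0.882, limma). Its sign was negative with the 75th percentile shift and with normexp background correction.

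On the export side, Slc40a1, which encodes ferroportin, read 8.30, 8.14 and 8.14 in B41 HET and 8.07, 7.94 and 7.99 in B41 KO. The B41 KO arrays were all lower, by 0.07 between the nearest arrays, and the log2 difference of -0.19 did not pass (95% interval -0.39 to 0.01, adjusted p = 0.245, limma). With the slide row as a block it was -0.12. Macrophages of the brain borders also use ferroportin, and border macrophage markers were lower in B41 KO as given above. Their part in this difference was not tested.

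Ceruloplasmin oxidises iron as ferroportin releases it, and its 4 probes were not alike. Probe A_55_P2111302 read 7.21, 7.16 and 7.02 in B41 HET and 6.84, 6.60 and 6.74 in B41 KO. All B41 KO arrays lay below the B41 HET arrays there, with a log2 difference of -0.40 (95% interval -0.64 to -0.16, adjusted p = 0.0736, limma), which was short of both parts of the threshold. Probe A_52_P597002 read 7.19, 7.01 and 6.88 against 7.14, 6.97 and 7.12, with the genotypes interleaved and a difference of 0.05 (95% interval -0.22 to 0.32, adjusted p = 0.839).

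Another Cp probe, on the same accession as A_55_P2111302, read 5.17, 5.08 and 5.13 in B41 HET and 4.94, 5.09 and 5.20 in B41 KO, a log2 difference of -0.05 (95% interval -0.27 to 0.17, adjusted p = 0.788, limma). Its genotypes overlapped. The fourth Cp probe was on no array well above background. Astrocytes are a known source of ceruloplasmin in the brain, and 0 of 8 astrocyte markers were called. Their summed signal, in which the brightest markers weigh most, was 10.87 to 10.93 in B41 HET and 11.01 to 11.16 in B41 KO. The median log2 difference of the 8 markers was -0.02. The part of astrocytes in the Cp values was not tested.

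Hamp encodes hepcidin, the hormone that makes ferroportin be taken in and degraded, and it was near the limit of detection. It read 1.22, 2.26 and 3.33 in B41 HET and 3.09, 3.14 and 3.75 in B41 KO. Of the arrays, 1 of B41 HET and 2 of the B41 KO arrays were well above background, so the fitted log2 difference of 1.05 (95% interval -0.29 to 2.40, adjusted p = 0.322, limma) is poorly measured. The difference was 0.53 without B41 HET replicate 1, the lowest array, 1.58 without B41 HET replicate 3, and 0.12 with normexp background correction.

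Hmox1, which opens the haem ring and sets iron free, read 6.16, 6.41 and 6.26 in B41 HET and 6.06, 5.78 and 5.88 in B41 KO. Every B41 KO array was lower, with 0.10 between the nearest arrays. The log2 difference of -0.37 (SE 0.11, 95% interval -0.64 to -0.10, adjusted p = 0.118, limma) did not pass, and it was -0.21 with the slide row as a block. Hmox1 is also a gene of haem-clearing macrophages, border macrophage markers were lower in B41 KO as given above, and the part of those cells in this difference was not tested.

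Ireb2, the iron regulatory protein that is itself degraded when iron is plentiful, read 6.63, 6.52 and 6.37 in B41 HET and 6.84, 6.89 and 6.63 in B41 KO. The genotypes were separated only narrowly, the lowest B41 KO array lying 0.004 above the highest B41 HET array. The log2 difference was 0.28 (95% interval 0.01 to 0.55, adjusted p = 0.206, limma), which did not pass.

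**Figure D3:**
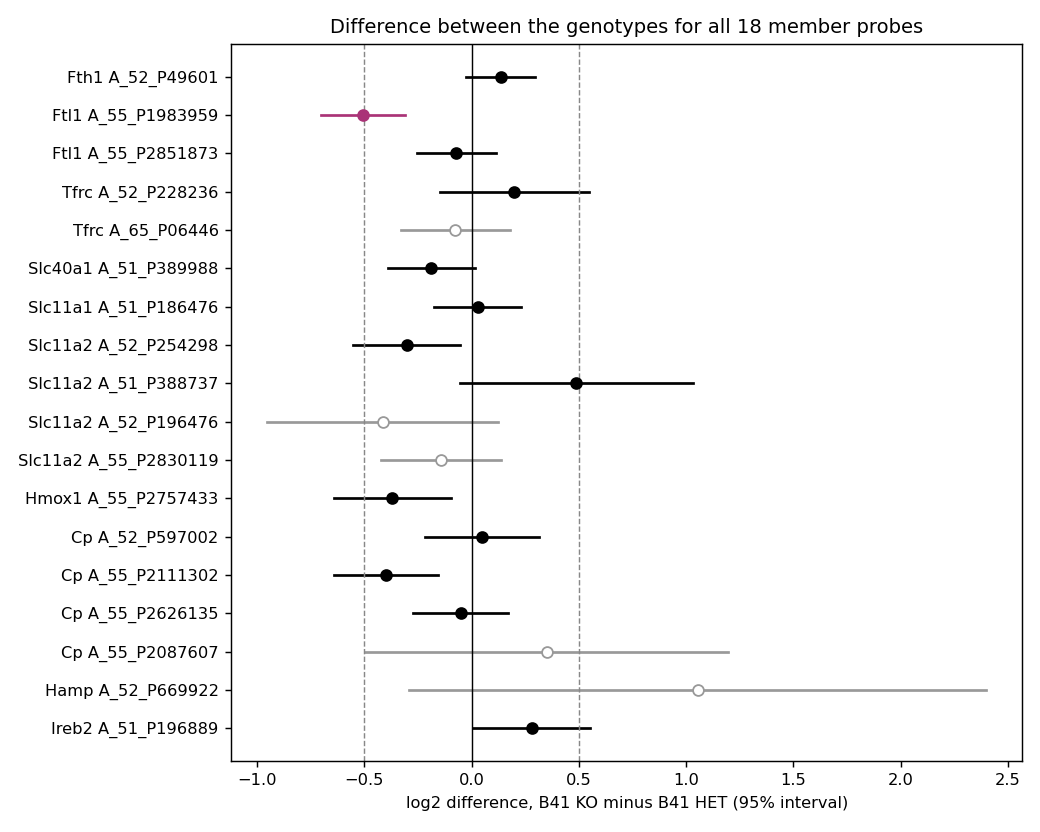
Log2 difference between B41 KO and B41 HET with its 95% interval (horizontal axis) for all 18 probes of the 10 genes (vertical axis), purple for the probe that passed the threshold, black for the others measured on all arrays and open grey for those not well above background on every array, with the fold threshold dashed. A single filled point, Ftl1 A_55_P1983959 at -0.51, reaches past a dashed line, and the widest interval is that of Hamp, from -0.29 to 2.40.

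The core promoters of the iron handling genes were searched for the letters CACGTG, the E-box to which Bhlhe41 is known to bind, and for TGACNNNGC, the core of the antioxidant response element read by NRF2 and BACH1, on both strands. RefSeq windows on GRCm38.p6, from 250 bases before to 50 after the start, were at hand for 7 of the 10 genes (not Slc40a1, Slc11a2 and Hmox1). Of these 7 genes, 0 held CACGTG and 0 held TGACNNNGC, and the shares among all genes with a window were 8.09% and 14%. With so few genes, 0 is not set apart from these shares, and the missing letters say nothing of sites farther away.

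The surrounding pathway was read on 65 other iron genes, each by its brightest probe. Of these, 11 passed the threshold, 9 lower and 2 higher in B41 KO (16.9%), against 5.45% of all named genes (1.44% called higher and 4.01% called lower). The list was chosen with earlier results of these data known, so the 16.9% describes this list and is no test of the pathway. The 11 include Ltf, Lcn2, Hp and Cd163, genes of neutrophils or border macrophages, and Steap1, on no array well above background. Of the 6 called genes with several probes, 2 were called on every probe. The median log2 difference over the 65 genes was 0.01, the same as over all named genes (0.01). Leaving out 1 array left 6 to 9 of them called, the fewest without B41 HET replicate 2 (6), and 7 were called without B41 HET replicate 1 or without B41 KO replicate 2. With the slide row as a block 4 were called (Ltf, Lcn2, Cd163 and Steap1), and the other 7 lost their call. That block leaves a single B41 KO array to compare within row 1, and the differences of Slc25a37 (-0.67), Slc48a1 (-0.64), Ppox (-0.63), Hfe (-0.56) and Alas2 (0.49) kept their direction and lay within 1.5 times of those without it.

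Secreted proteins that bind iron, siderophores or haemoglobin were among the genes called lower. Ltf, which encodes the iron-binding granule protein lactoferrin, read 12.96, 12.82 and 12.85 in B41 HET and 9.86, 9.82 and 9.44 in B41 KO, and fell by 3.17 on the log2 scale (SE 0.13, adjusted p = 0.00104, limma). Lcn2, the lipocalin that captures bacterial siderophores, read 13.03, 13.01 and 12.84 against 11.16, 11.15 and 11.14 and fell by 1.81 (SE 0.08, adjusted p = 0.00107), and on its dimmer probe it fell by 3.20 (SE 0.17, adjusted p = 0.00181). Hp (haptoglobin, which binds free haemoglobin) read 8.35, 8.46 and 8.19 against 7.40, 7.29 and 7.35 and fell by 0.99 (SE 0.09, adjusted p = 0.00753). On all 3 genes the genotypes lay far apart relative to the spread of the arrays, and none lost its call when 1 array was left out. Hp did lose it with the slide row as a block, at -0.94 (adjusted p = 0.0804). All 3 are known products of neutrophil granules, and the neutrophil markers fell alongside them, from a summed signal of at least 14.05 to at most 11.68. Their part in these decreases was not tested.

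Cd163, the macrophage receptor that takes up haemoglobin bound to haptoglobin, read 6.24, 6.26 and 6.28 in B41 HET and 5.11, 5.28 and 5.32 in B41 KO. It fell by 1.02 on the log2 scale (SE 0.08, adjusted p = 0.00506, limma), and stayed called when any 1 array was left out. With normexp background correction the decrease was smaller and still called, with a difference of -0.53. Its second probe was on no array well above background. Cd163 is a defining gene of border macrophages, whose other markers were lower too (5 of 10 called), and their part was not tested.

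The other 5 genes that were called lower handle haem and iron inside the cell or at its surface. Glrx5, which helps hand on iron-sulphur clusters in mitochondria, read 9.23, 9.18 and 9.21 in B41 HET and 8.50, 8.60 and 8.54 in B41 KO and fell by 0.66 on the log2 scale (SE 0.07, adjusted p = 0.00877, limma), with no call lost when 1 array was left out. The call of Glrx5 was lost with the slide row as a block, at -0.70 (adjusted p = 0.0704). Slc25a37, the mitoferrin that brings iron into mitochondria, fell by 0.69 (adjusted p = 0.0102) on its brightest probe, from 11.60 to 11.77 down to 10.99 to 11.02, and its other two probes did not pass, at -0.08 and 0.08. The call of Slc25a37 was lost without B41 HET replicate 2 (adjusted p = 0.0567), with a difference of -0.68.

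Slc48a1, which moves haem out of lysosomes, fell by 0.69 on the log2 scale (adjusted p = 0.0114, limma), from 11.18 to 11.36 in B41 HET to 10.55 to 10.65 in B41 KO. Its second probe had a difference of 0.15 (adjusted p = 0.437). Ppox, an enzyme late in haem synthesis, fell by 0.73 (adjusted p = 0.0171), from 11.60 to 11.68 down to 10.73 to 11.00, and its second probe had a difference of -0.06 (adjusted p = 0.660). The call of Slc48a1 was lost without B41 HET replicate 1 or 2 or B41 KO replicate 2 (adjusted p up to 0.0579), while its difference stayed between -0.74 and -0.66 with any 1 array left out. That of Ppox was lost without any 1 B41 HET array or without B41 KO replicate 2 (adjusted p up to 0.0735), while its difference stayed between -0.77 and -0.64.

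Hfe, the membrane protein that joins transferrin receptors to hepcidin control, fell on both of its probes. The brighter read 9.04, 9.22 and 9.05 in B41 HET and 8.54, 8.72 and 8.52 in B41 KO, a decrease of 0.51 on the log2 scale (SE 0.10, adjusted p = 0.0401, limma). With any 1 array left out its call was lost, while the difference stayed between -0.57 and -0.45 (adjusted p from 0.0670 to 0.125). The dimmer read 8.09, 8.02 and 7.85 against 7.07, 7.14 and 7.09, a decrease of 0.89 (SE 0.09, adjusted p = 0.00829). No array of one genotype overlapped the other on either probe.

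Of the 2 genes called higher, Alas2, the erythroid form of the first enzyme of haem synthesis, read 5.95 to 6.08 in B41 HET and 6.48, 6.50 and 6.72 in B41 KO. It rose by 0.55 on the log2 scale (SE 0.09, adjusted p = 0.0312, limma), and the call was lost when any 1 array was left out (adjusted p from 0.0656 to 0.113) and with normexp background correction, which gave a difference of 0.32. The erythroid markers had a summed signal of 15.31 to 15.37 in B41 KO and of 14.97 to 15.07 in B41 HET, and their part in this increase was not tested. Steap1, of the STEAP family of metal reductases, also passed the test, but its probe was on no array well above background and it was not called with normexp, so no fold is given.

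**Figure D4:**
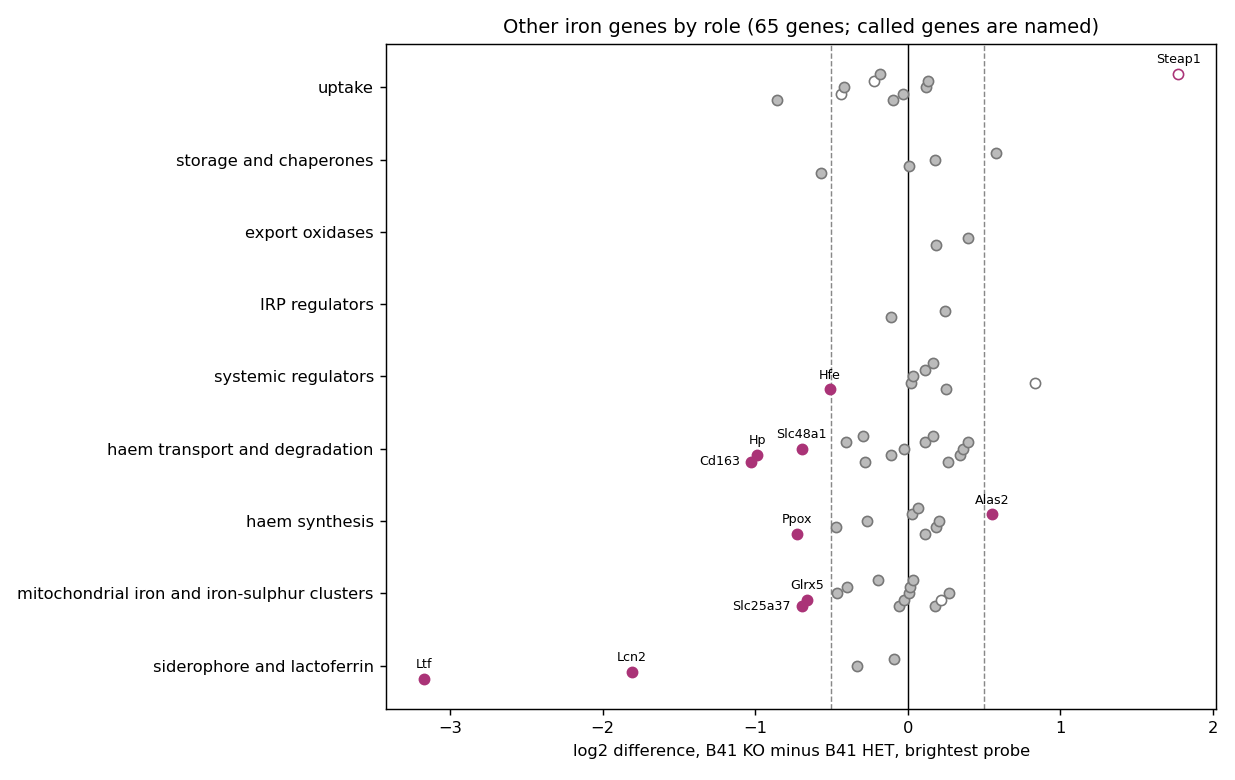
Log2 difference between B41 KO and B41 HET on the brightest probe (horizontal axis) of 65 other iron genes, grouped by role (vertical axis), purple where called, grey where not and open where no array had the probe well above background, with the fold threshold dashed. The named genes at the left are Ltf at -3.17 and Lcn2 at -1.81, while 50 of 65 genes lie between the dashed lines.

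The called genes were counted by role. Of 10 genes of uptake, 1 passed (Steap1), and of 4 genes of storage and chaperones, 2 export oxidases and 2 regulators of the iron regulatory proteins, 0 passed. Of 7 systemic regulators 1 passed (Hfe), as did 3 of 14 genes of haem transport and degradation (all lower), 2 of 9 of haem synthesis (1 each way), 2 of 13 of mitochondrial iron and iron-sulphur clusters (both lower) and 2 of 4 in the siderophore and lactoferrin group (both lower). These shares stand beside 5.45% of named genes as a description, since the list was chosen with earlier results known. The groups are too small to be set against each other.

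Of the genes that hand iron to and from ferritin, Ncoa4 and Pcbp1 did not pass and the probes of Pcbp2 went opposite ways. Ncoa4, the receptor that sends ferritin to lysosomes, had a log2 difference of 0.01 (SE 0.18, adjusted p = 0.983, limma), with 1 B41 KO array left out of its probe for an outlier flag. Its dimmer probe, measured on all 6 arrays, was lower on every B41 KO array without passing (-0.28, adjusted p = 0.235). Pcbp1, an iron chaperone of ferritin, had one of 0.18 (adjusted p = 0.466). Its relative Pcbp2 was called on its dimmer probe alone, where it was higher (0.61, adjusted p = 0.0111), while its brighter probe was lower without passing (-0.57, adjusted p = 0.0567). Which Pcbp2 probe better reflects the gene was not tested.

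Trf, Heph and Aco1, which act in import, export and control, were not called. Trf, which encodes transferrin, had a log2 difference of -0.18 (adjusted p = 0.280, limma) and read 14.40 to 14.63 in B41 HET and 14.27 to 14.32 in B41 KO, and its second probe had a difference of 0.02. Heph, a ferroxidase related to ceruloplasmin, had one of 0.18 (adjusted p = 0.221), and Aco1, the other iron regulatory protein, one of -0.11 (adjusted p = 0.575). Ireb2 and Aco1 therefore had differences of opposite sign, neither past the threshold.

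Among the genes that share the haem pathway with Hmox1, the constitutive haem oxygenase Hmox2 had a log2 difference of -0.29 on its brightest probe (adjusted p = 0.153, limma). Its second probe had one of -0.36 (adjusted p = 0.0952), and every B41 KO array was lower on both. The biliverdin reductase Blvrb had one of 0.34 (adjusted p = 0.137). The probes of the other biliverdin reductase, Blvra, went opposite ways without passing. The brighter had 0.17 (adjusted p = 0.478) and the dimmer -0.49 (adjusted p = 0.0355), below the fold limit. The repressor of Hmox1, Bach1, was higher on every B41 KO array (8.17 to 8.35, against 7.80 to 8.05 in B41 HET), a difference of 0.39 (SE 0.10, adjusted p = 0.0887) that did not pass. Nfe2l2, which encodes the activator NRF2, had one of 0.36 (SE 0.19, adjusted p = 0.342), with B41 HET replicate 3 well below the other arrays at 6.04, and its dimmer probe had a difference of the opposite sign (-0.39, adjusted p = 0.194).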

How the data were processed

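Total RNA of sorted microglia (3 B41 HET and 3 B41 KO samples, grouped by the labels) was hybridised to SurePrint G3 Mouse v2 arrays. The authors deposited scanner intensity files from Feature Extraction 11.5.1.1, in which the processed signal is background-subtracted and detrended with no scaling across arrays, and also log2 values with equal quantiles in all samples, used as an alternative; their scale is not labelled and was read from their range.

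Control spots were left out (59305 of 62976 spots stayed), 95 to 136 outlier spots per array were removed, the log2 processed intensity was quantile normalized, spots were averaged per probe, and limma 3.58.1 in R 4.3.3 compared the genotypes over all probes with Benjamini-Hochberg adjustment, as the study's methods name quantile normalization and limma. The dim-probe filter was an alternative, not part of the test. No spot was saturated (0). Probes were named by accession through RefSeq genes on GRCm38.p6 (59.7% named); the array design names mm9, so no coordinates are given. Of a gene's probes, the brightest over 6 arrays stands for it in counts by gene. Background correction by normexp used median signals. The number of arrays limits the precision. Scripts were tested on simulated data.

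All probes of the 10 genes were reported. Of the other iron genes, those called on their brightest probe were named, with Trf, Heph, Aco1, Ncoa4, Pcbp1, Pcbp2, Hmox2, Blvrb, Bach1 and Nfe2l2 whatever their values. Blvra was added after its values were seen. Hfe2 and Fam132b of the lists were read as Hjv and Erfe. The genes, lists and tests were chosen with earlier results of these data known. The alternatives were other normalization, background correction, filters, variance models, blocks and thresholds, the mean over a gene's probes, and each array left out.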

Additional observations from a re-analysis of the deposited data

How the results depend on the processing

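The count of called probes of the 10 genes (1) fell to 0 with the replicate block, with the slide row as a block and at a fold of 1.5 or more, and was 0 to 0 with 1 array left out, while it was 1 with the 75th percentile shift, the authors' values, normexp, the dim-probe filter, outlier spots kept, trend and robust variance, and no fold threshold. Of 65 other iron genes, 11 were called in the main test, 4 with the slide row as a block, 1 with the replicate block and 6 to 9 with 1 array left out. Over all probes, 2867 were called, 1500 with normexp, 444 with the slide row as a block, 42 with the replicate block and 792 to 1525 with 1 array left out. The replicate numbers were not taken to pair the samples, since deviations of same-numbered arrays correlated at only 0.03, 0.01 and 0.05, although 4 of 6 arrays correlated best with their own number.

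The sign turned for 6 probes that were called in no setting. With the 75th percentile shift it did so for Tfrc A_65_P06446 (0.20), Slc11a1 (-0.026), Slc11a2 A_55_P2830119 (0.18) and Cp A_55_P2626135 (0.046), and with normexp for Tfrc A_65_P06446 (0.0032), Slc11a1 (-0.033) and Slc11a2 A_55_P2830119 (0.0057). With the slide row as a block it did so for Cp A_55_P2087607 (-0.030). With 1 array left out the differences ranged from -0.13 to 0.017 for Tfrc A_65_P06446 (positive without B41 HET replicate 2), from -0.020 to 0.060 for Slc11a1 (negative without B41 HET replicate 3 or B41 KO replicate 1), from -0.026 to 0.13 for Cp A_52_P597002 (negative without B41 HET replicate 3), from -0.11 to 0.016 for Cp A_55_P2626135 (positive without B41 KO replicate 1) and from -0.052 to 0.56 for Cp A_55_P2087607 (negative without B41 KO replicate 3). The cause was not tested. Of 18 probes, 3 were never well above background, which with the faint probe of Hamp limits what can be read.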

Other observations

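Some iron genes outside the 10 lay just short of the threshold. Slc25a28, the second mitoferrin, had a log2 difference of -0.46 (adjusted p = 0.0260, limma), below the fold limit, on its single probe. On its brightest probe Alas1, the form of the first haem synthesis enzyme used outside red cells, had one of -0.47 (adjusted p = 0.0536), opposite in sign to that of its erythroid form Alas2. Slc46a1, a carrier of folate and haem, had differences of -0.41 and -0.32 on its 2 probes (adjusted p = 0.0642 on the brighter). These genes were chosen after their values were seen.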
